A study of Mus musculus with 11 samples.

Results

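The GIMAP genes encode GTPases of immunity-associated proteins, and 8 of them (Gimap1, Gimap3, Gimap4, Gimap5, Gimap6, Gimap7, Gimap8 and Gimap9) were described here in mouse splenic CD4 T cells. They were taken by gene symbol from the authors' deposited table, and all 8 were measured, by 11 of the 37510 probe sets that named a single gene. The test covered 20400 genes. RNA was measured on 11 single-channel oligonucleotide arrays in 4 groups of female C57BL/6 mice. Wild-type mice 8 weeks old that had not been manipulated gave 3 arrays of naive cells (WT naive) and 2 of innate memory phenotype (IMP) cells (WT IMP). MW naive (3 arrays) was sorted from irradiated wild-type hosts reconstituted with CD45.2+ MHCII-/- marrow, and WM IMP (3 arrays) from irradiated CD45.2+ MHCII-/- hosts reconstituted with CD45.1+ wild-type marrow, both 8 weeks after transplantation. The labels disagree on the CD45 allele of the hosts of MW naive. Naive cells were sorted as TCRβ+ CD4+ CD44lo and IMP cells as TCRβ+ CD4+ CD44hi, with a further surface marker in each gate and in chimeras also for the CD45 allele of the donor marrow. In MW naive the surviving host stroma carried MHC class II and the marrow did not, and in WM IMP the marrow carried it and the stroma did not. No chimera array of the other phenotype was used here, so the 2 chimera groups differ in phenotype, donor genotype and host at once. The labels call the arrays of a group biological replicates and do not say whether animals were pooled.

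GIMAP proteins are GTP-binding proteins of lymphocytes, several of which are anchored to membranes of the endoplasmic reticulum, mitochondria, lysosomes or Golgi. Their genes lie side by side on mouse chromosome 6. In mice and rats the loss of some members leads to loss of mature T cells. Individual members are known to protect T cells, to hasten their death or to take part in autophagy, so the family as a whole has no common direction of action.

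The values give each array's log2 difference from the WT naive average, so the 3 WT naive arrays have a mean of 0 on any probe set by construction. No brightness is held in the files, so the level of a gene, its rank against another gene and its distance from background are not known. In these bulk samples, fewer cells that carry a transcript and less of it per cell cannot be told apart. Expression of a gene was the mean of its probe sets. Differences were tested with limma on all 11 arrays, and a gene was called at a Benjamini-Hochberg adjusted p under 0.05 over all 20400 genes. Errors beside differences are standard errors (SE). The small number of arrays limits the precision.

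Gimap4, Gimap6 and Gimap7 were the members called in at least 1 comparison between 2 groups, and their promoters are shown for that reason. Each window holds 250 bases before and 50 bases after the annotated start, on the strand of the gene, from RefSeq on build GRCm38.p6. Capitals mark matches, on either strand, to short motifs of factors that act in naive T cells: GGAAGT of ETS factors, TGTGGT of RUNX factors, GTAAACA of FOXO factors, CCACCC of KLF factors and CTTTGA of TCF and LEF factors.
Gimap4 promoter, chr6:48684328-48684627, strand plus: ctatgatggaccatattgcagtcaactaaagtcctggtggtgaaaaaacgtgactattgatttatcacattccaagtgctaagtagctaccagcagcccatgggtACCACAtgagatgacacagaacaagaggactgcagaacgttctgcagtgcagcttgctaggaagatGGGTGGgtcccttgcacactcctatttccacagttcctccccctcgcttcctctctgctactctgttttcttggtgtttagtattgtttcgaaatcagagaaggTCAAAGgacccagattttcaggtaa
Gimap6 promoter, chr6:48708195-48708494, strand minus: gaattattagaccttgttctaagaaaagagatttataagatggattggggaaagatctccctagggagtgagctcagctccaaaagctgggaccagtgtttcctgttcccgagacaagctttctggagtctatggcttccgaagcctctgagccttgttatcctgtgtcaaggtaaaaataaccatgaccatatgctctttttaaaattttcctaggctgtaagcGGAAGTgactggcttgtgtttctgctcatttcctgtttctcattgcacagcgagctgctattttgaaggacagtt
Gimap7 promoter, chr6:48718371-48718670, strand plus: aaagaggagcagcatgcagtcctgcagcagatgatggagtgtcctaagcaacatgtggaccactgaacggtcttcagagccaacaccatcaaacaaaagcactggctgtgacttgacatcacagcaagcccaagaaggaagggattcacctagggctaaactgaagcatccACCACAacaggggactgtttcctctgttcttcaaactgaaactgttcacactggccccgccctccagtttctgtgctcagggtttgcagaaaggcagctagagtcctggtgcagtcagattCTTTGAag
The capitals of these windows do not overlap each other. The Gimap7 window holds ACCACA, the RUNX motif read on the other strand, and CTTTGA. The Gimap4 window holds the RUNX, KLF and TCF/LEF motifs, each on the other strand, and the Gimap6 window holds the ETS motif alone. Over the 9 windows of the 8 members, the ETS motif was found for 4 members, RUNX for 3, FOXO for 1 (Gimap3), KLF for 5 and TCF/LEF for 2. The shares of all 32851 promoter windows of the same length were 23.8% for ETS, 16.8% for RUNX, 3.65% for FOXO, 31.5% for KLF and 16% for TCF/LEF. The windows of the members held 2 to 8 CpG dinucleotides against a median of 7 over all windows, and their GC content was 43.3% to 57.3% against a median of 52.7%. A match describes the letters only.

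In unmanipulated mice, Gimap7 was higher and Gimap6 lower in IMP than in naive cells, and the other 6 members were not called. In the chimeras Gimap7 was the 1 member called, 4.79-fold higher in WM IMP than in MW naive. Between the naive groups, Gimap7 and Gimap4 were lower in MW naive than in WT naive. In WT IMP against WT naive, 2 of 8 members were called beside 7.66% of all genes. In WM IMP against MW naive, 1 of 8 was called beside 13.1%, and in MW naive against WT naive, 2 of 8 beside 2.73%. None of the 8 was called in WM IMP against WT IMP (1.27% of all genes) or in the test of whether the IMP minus naive difference differed between chimeras and unmanipulated mice (0.0588%). At an unadjusted limma p under 0.05 these counts of 0 became 3 (Gimap1, Gimap4 and Gimap7), beside 17.5% of all genes, and 2 (Gimap6 and Gimap7), beside 7.51%. The median difference of the 8 members was 0.0042 in WT IMP against WT naive, 0.20 in WM IMP against MW naive, -0.29 in MW naive against WT naive and -0.027 in WM IMP against WT IMP. Over all genes these medians were -0.0069, -0.018, 0.051 and 0.023. The WT naive arrays serve as reference for both WT IMP and MW naive, and the MW naive arrays enter the comparison with WM IMP as well, so these comparisons are not independent of each other.

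**Figure D1:**
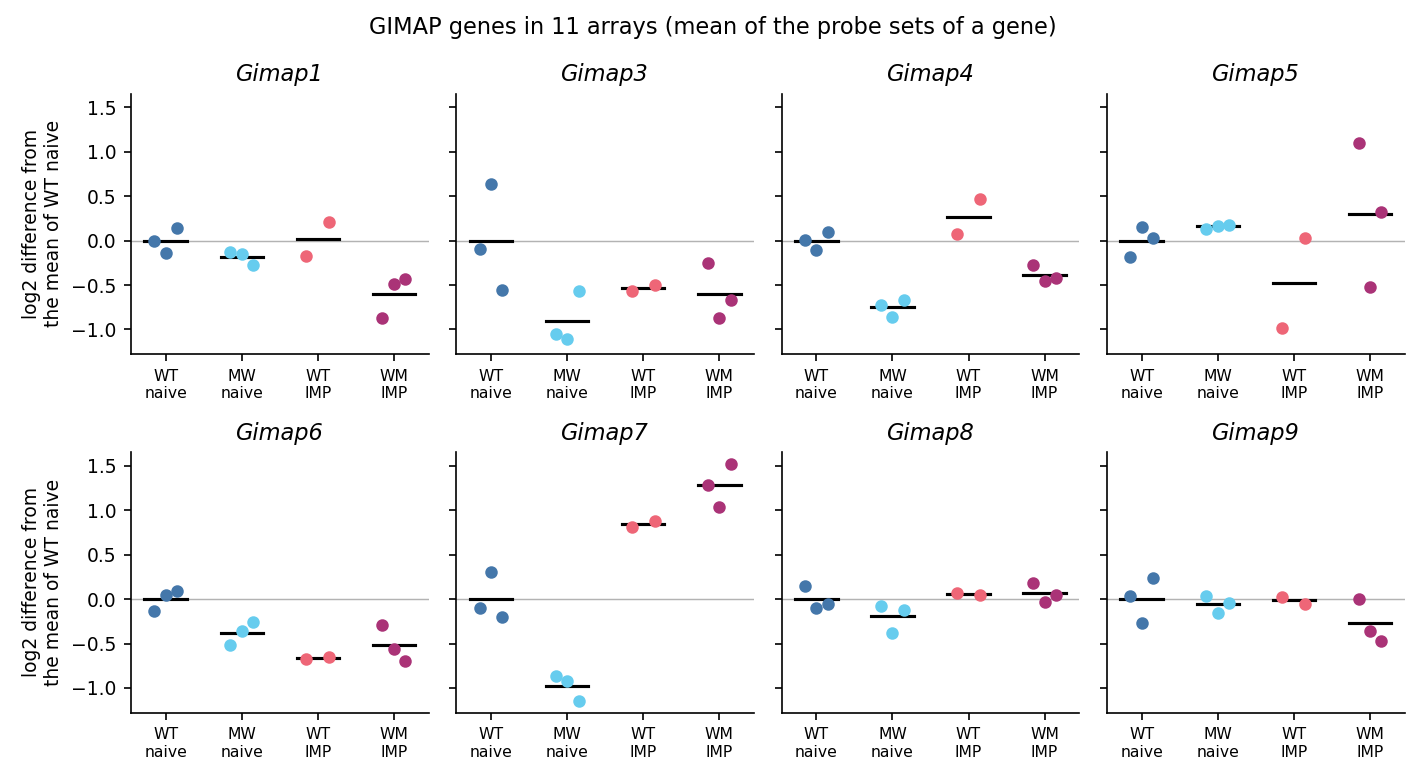
Each point is 1 array and each bar a group mean, in log2 differences from the mean of WT naive, for the 8 GIMAP genes (mean of the probe sets of a gene). Gimap7 spans from -1.15 in an MW naive array to 1.52 in a WM IMP array, and the 3 WM IMP arrays of Gimap5 lie between -0.53 and 1.10.

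**Figure D2:**
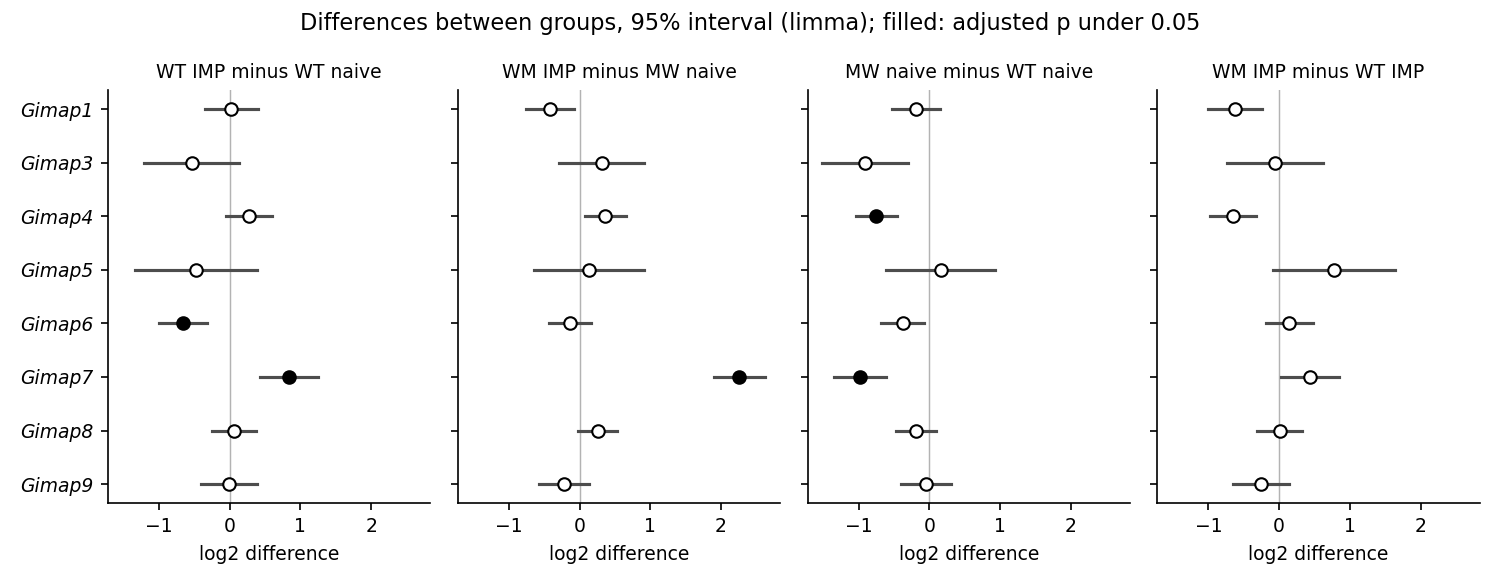
Points are log2 differences between 2 groups for each GIMAP gene, lines are 95% intervals from limma, and filled points have an adjusted p under 0.05. The filled points are Gimap6 and Gimap7 in WT IMP minus WT naive, Gimap7 in WM IMP minus MW naive, and Gimap4 and Gimap7 in MW naive minus WT naive.

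Gimap7 encodes a GTPase that forms dimers and, in human cells, stimulates GTP hydrolysis by GIMAP2. The mean of its probe sets was -0.10, 0.30 and -0.21 in the 3 WT naive arrays and -0.87, -0.92 and -1.15 in MW naive. It was 0.81 and 0.88 in WT IMP and 1.29, 1.03 and 1.52 in WM IMP. Both IMP groups lay above both naive groups with no overlap, and MW naive lay below all other arrays. Gimap7 rose by 2.26 ± 0.17 (SE) from MW naive to WM IMP (limma adjusted p = 4.41e-06). It rose by 0.84 ± 0.19 from WT naive to WT IMP (adjusted p = 0.0170), and in MW naive it fell by 0.98 ± 0.17 below WT naive (adjusted p = 0.0150). WM IMP against WT IMP gave 0.44 ± 0.19 (adjusted p = 0.260). The IMP minus naive difference was larger in the chimeras than in unmanipulated mice by 1.42 ± 0.25, which was not called (adjusted p = 0.0848), and since the chimera difference uses the low MW naive arrays it also carries the difference between the naive groups.

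The 2 probe sets of Gimap7 showed the rise in the chimeras alike and differed elsewhere. On 1425084_at the values were 0.27, -0.12 and -0.15 in WT naive and -1.49, -1.80 and -1.67 in MW naive. On the same probe set they were 1.15 and 1.28 in WT IMP and 0.61, 0.41 and 0.60 in WM IMP. The 4 groups did not overlap on 1425084_at, in the order MW naive, WT naive, WM IMP, WT IMP from lowest to highest. On 1444283_at the values were -0.47, 0.72 and -0.26 in WT naive and -0.24, -0.05 and -0.62 in MW naive. They were 0.47 and 0.47 in WT IMP, inside the WT naive range, and 1.96, 1.66 and 2.45 in WM IMP, above all other arrays. The order of the IMP groups was thus opposite on the 2 probe sets.

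With each probe set tested by itself over all 37510, 1425084_at was called in 3 comparisons. It rose by 2.19 ± 0.16 from MW naive to WM IMP (limma adjusted p = 4.08e-06) and by 1.22 ± 0.18 from WT naive to WT IMP (adjusted p = 0.00152), and was lower in MW naive than in WT naive at -1.65 ± 0.16 (adjusted p = 0.00248). Its difference between WM IMP and WT IMP was -0.68 ± 0.18 (adjusted p = 0.0749). The second probe set, 1444283_at, rose by 2.33 ± 0.30 from MW naive to WM IMP (adjusted p = 3.98e-04) and was higher in WM IMP than in WT IMP by 1.55 ± 0.34 (adjusted p = 0.0420), and its other differences were 0.47 ± 0.34 for WT IMP minus WT naive and -0.31 ± 0.30 for MW naive minus WT naive, neither called. In the authors' deposited table, which gives 1 value per gene, Gimap7 ran close to 1425084_at, with a root mean square difference of 0.171 over the 11 arrays against 1.01 for 1444283_at. Its group means there were -1.47 ± 0.12 in MW naive (SD, n = 3), 1.20 ± 0.06 in WT IMP (SD, n = 2) and 0.80 ± 0.19 in WM IMP (SD, n = 3). Of the 5144 genes with 2 probe sets, 99.8% had a smaller gap between them than Gimap7 in WM IMP against WT IMP, and 26.4% had a smaller gap in WM IMP against MW naive.

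The rise of Gimap7 from MW naive to WM IMP was called in each of 24 alternatives, at 2.14 to 2.38. The WT IMP minus WT naive call on the mean of both probe sets was lost without WT naive replicate 1 (0.80, adjusted p = 0.0586), without WT naive replicate 3 (0.74, adjusted p = 0.0738) and without WT IMP replicate 1 or 2 (0.88 and 0.81, adjusted p = 0.113 for each). On 1425084_at it was called in each of 16 alternatives, at 1.14 to 1.42. The higher value of 1444283_at in WM IMP than in WT IMP was called in 5 of 16, at 1.34 to 1.73. All these alternatives for single probe sets were added after seeing the data.

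**Figure D3:**
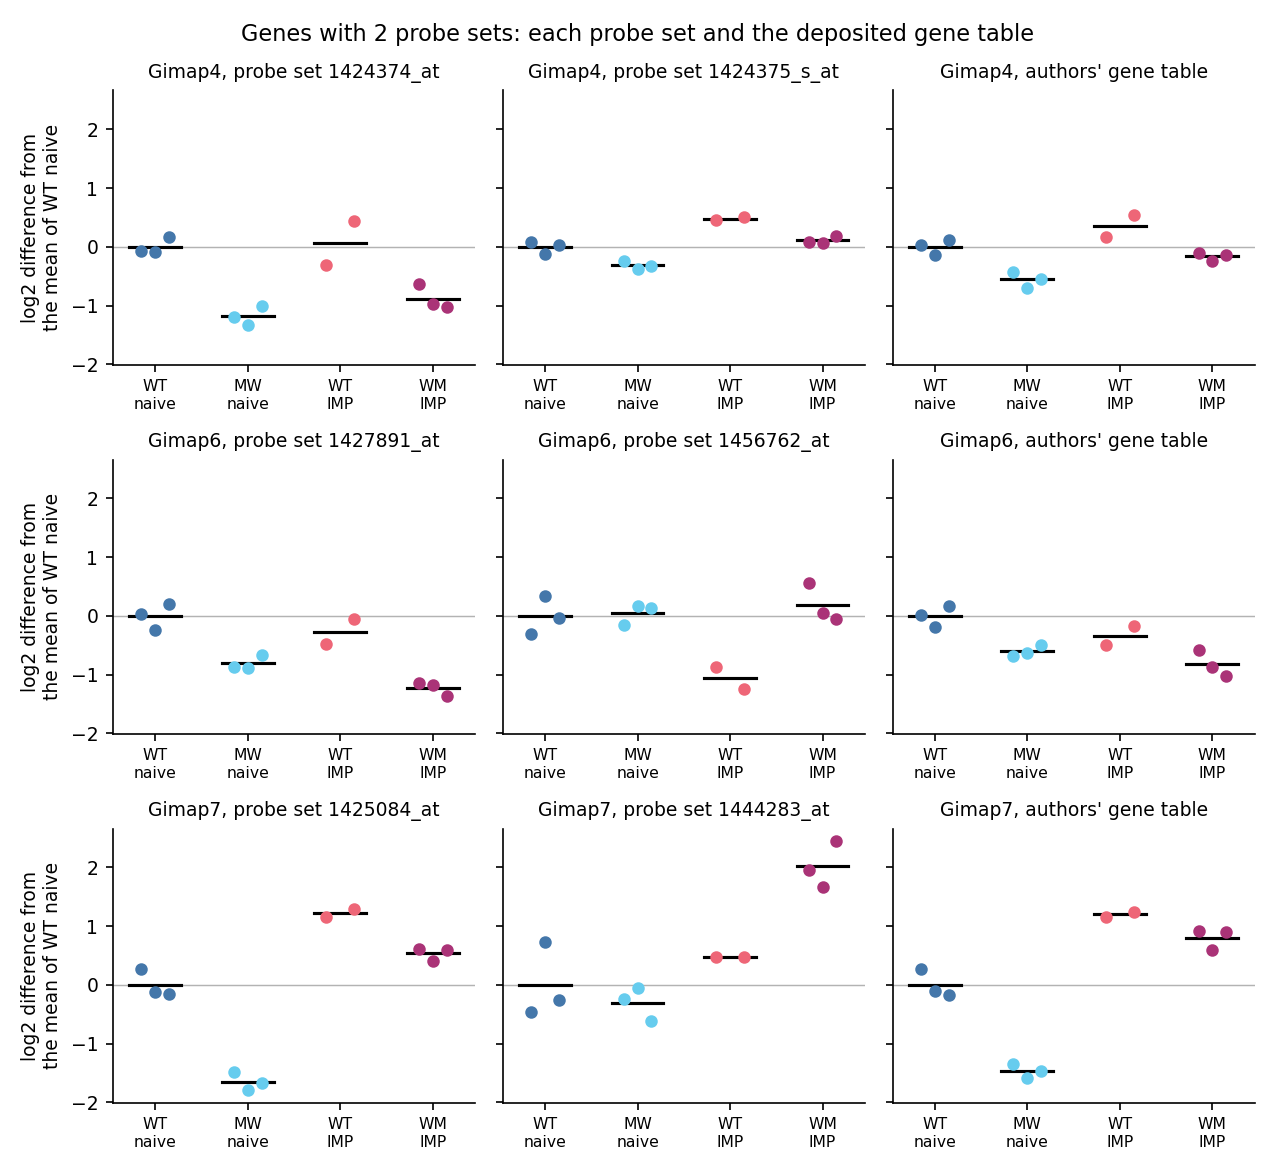
Points are arrays and bars group means, in log2 differences from the mean of WT naive, for both probe sets of Gimap4, Gimap6 and Gimap7 and for the authors' gene table. The highest group of Gimap7 is WT IMP on 1425084_at and WM IMP on 1444283_at, and the lowest group of Gimap6 is WM IMP on 1427891_at and WT IMP on 1456762_at.

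Transcripts used as markers of other cell types also differed between the IMP and naive groups. The mean of 8 dendritic cell markers lay between -0.17 and 0.19 in the 6 naive arrays, at 2.82 and 2.98 in WT IMP and at 1.73 to 2.84 in WM IMP. Of these markers 7 of 8 rose from WT naive to WT IMP and 5 of 8 from MW naive to WM IMP, among them Siglech (5.48 and 3.61), Itgax (4.31 and 4.71) and Flt3 (3.92 and 3.58). All 6 measured MHC class II genes rose in both comparisons, and 5 of 10 monocyte and macrophage markers did so in each. The marrow of MW naive was MHCII-/-, and 3 of the 6 MHC class II genes were lower in MW naive than in WT naive. Their rise in the chimeras therefore also carries the difference between the naive groups. B cell markers rose for 1 of 10 in unmanipulated mice (Ly86) and for 5 of 10 in the chimeras, with a list mean of 2.64 in WM IMP replicate 1 and 0.88 and 0.96 in the other WM IMP arrays. NK cell markers rose for 1 of 6 and 3 of 6, CD8 T cell markers for 0 and 1 of 2 (Cd8a), and erythroid and platelet markers for 0 of 6 in both comparisons. Endothelial markers rose for 3 of 8 and fell for 1 in unmanipulated mice, and rose for 1 of 8 in the chimeras. Of 10 T cell markers 0 were called in WT IMP against WT naive, and 1 (Lat) fell in the chimeras. The mean of the 10 T cell markers was -0.074 to 0.12 in WT naive and -0.37 and -0.20 in WT IMP. It was -0.62 to -0.40 in MW naive and -0.72 to -0.46 in WM IMP. The sort on TCRβ and CD4 was meant to remove the other cell types. Whether the markers of other cell types came from other cells or from the sorted T cells was not tested. The part of RNA of other cells in the GIMAP values was not tested either.

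Gimap6 encodes a GTPase that binds the ATG8-family protein GABARAPL2 and is recruited to autophagosomes. The mean of its probe sets was -0.14, 0.05 and 0.09 in WT naive and -0.67 and -0.65 in WT IMP. It was -0.52, -0.36 and -0.26 in MW naive and -0.29, -0.56 and -0.70 in WM IMP. All WT IMP arrays lay below WT naive, and the chimera groups overlapped. Gimap6 fell by 0.66 ± 0.15 from WT naive to WT IMP (limma adjusted p = 0.0210). The chimera difference was -0.14 ± 0.14 (adjusted p = 0.583), and the difference between both IMP minus naive differences was 0.52 ± 0.20 (adjusted p = 0.583).

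The call of Gimap6 rested on 1 of its probe sets. On 1456762_at the values were -0.30, 0.33 and -0.03 in WT naive, -0.86 and -1.24 in WT IMP, -0.16, 0.17 and 0.14 in MW naive, and 0.56, 0.05 and -0.05 in WM IMP. On 1427891_at they were 0.03, -0.23 and 0.20 in WT naive, -0.48 and -0.05 in WT IMP, -0.88, -0.89 and -0.66 in MW naive, and -1.14, -1.17 and -1.36 in WM IMP. WT IMP was thus the lowest group on 1456762_at and WM IMP the lowest on 1427891_at, and both probe sets separated the IMP groups in opposite directions. In WM IMP against WT IMP, 1456762_at gave 1.24 ± 0.24 (limma adjusted p = 0.0315) and 1427891_at gave -0.95 ± 0.19 (adjusted p = 0.0333). Of the 5144 genes with 2 probe sets, 8 had both called in this comparison. In 2 of these 8 the directions were opposite, and Gimap6 was 1 of the 2. These counts are of the main setting. The Gimap6 call in this comparison held in 9 of 16 alternatives for 1456762_at and in 7 of 16 for 1427891_at. Neither probe set changed sign in them. Without WT IMP replicate 2 the differences were 1.05 and -0.74. From WT naive to WT IMP, 1456762_at fell by 1.05 ± 0.24 (adjusted p = 0.0259), while 1427891_at gave -0.27 ± 0.19 (adjusted p = 0.654). From WT naive to MW naive, 1427891_at fell by 0.81 ± 0.17 (adjusted p = 0.0279), called in 8 of 16 alternatives. The fall of 1456762_at from WT naive to WT IMP was called in 9 of 16. The authors' deposited table ran closer to 1427891_at (root mean square difference 0.243) than to 1456762_at (0.748), and with that table Gimap6 was not called in WT IMP against WT naive (-0.34, adjusted p = 0.358). The call on the mean of both probe sets was also lost without WT naive replicate 2 (-0.64, adjusted p = 0.0713), without WT naive replicate 3 (-0.62, adjusted p = 0.0858), without WT IMP replicate 1 (-0.65, adjusted p = 0.169) and without WT IMP replicate 2 (-0.67, adjusted p = 0.108).

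Of 12 autophagy genes set beside Gimap6, 0 were called in WT IMP against WT naive (median -0.0047). In WM IMP against MW naive 1 fell, Ulk1, a kinase that starts autophagy (-0.46 ± 0.13, limma adjusted p = 0.0396), with a list median of -0.068. In MW naive against WT naive 1 fell, Sqstm1, an autophagy receptor (-1.09 ± 0.25, adjusted p = 0.0435). The shares of all genes called in these comparisons were 7.66%, 13.1% and 2.73%, in the order given.

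Gimap4 encodes a GTPase that in mice hastens the death of T cells. Its values were 0.01, -0.10 and 0.10 in WT naive and -0.72, -0.86 and -0.66 in MW naive. They were 0.07 and 0.47 in WT IMP and -0.28, -0.45 and -0.42 in WM IMP. MW naive lay below all other arrays, and WM IMP lay below both WT groups and above MW naive. Gimap4 fell by 0.75 ± 0.13 from WT naive to MW naive, a 1.68-fold difference (limma adjusted p = 0.0170). WM IMP minus WT IMP was -0.65 ± 0.15 (adjusted p = 0.0590) and WM IMP minus MW naive 0.37 ± 0.13 (adjusted p = 0.0995), neither called. Both chimera groups were thus lower than the unmanipulated group of the same phenotype, by a called amount in the naive cells and by an uncalled amount of like size in the IMP cells. Probe set 1424374_at was -1.20, -1.33 and -1.01 in MW naive against -0.08, -0.09 and 0.17 in WT naive, a fall by 1.18 ± 0.20 (adjusted p = 0.0128 over probe sets), while 1424375_s_at was -0.24, -0.38 and -0.32 against 0.09, -0.12 and 0.03 (-0.32 ± 0.13, adjusted p = 0.238). The 2 probe sets moved in the same direction and MW naive did not overlap WT naive on either. The call of 1424374_at held in 11 of 16 alternatives. The call on the mean was lost in the authors' deposited table (-0.55, adjusted p = 0.0559) and without WT naive replicate 1 (-0.75, adjusted p = 0.0692), WT naive replicate 3 (-0.70, adjusted p = 0.0904), MW naive replicate 1 (-0.76, adjusted p = 0.0649) or MW naive replicate 2 (-0.69, adjusted p = 0.0849).

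In MW naive against WT naive, 4 of 8 members (Gimap3, Gimap4, Gimap6 and Gimap7) had all MW naive arrays below all WT naive arrays, beside 12.7% of all genes, and 0 had them above, beside 13.9%. Measures of RNA quality moved with this comparison. The 5′ minus 3′ difference of the Gapdh control probe sets, a control of RNA integrity and amplification, was -0.42 to 0.41 in WT naive and -4.22, -3.50 and -1.38 in MW naive. With it as a covariate Gimap7 gave -1.02 (adjusted p = 0.156) and Gimap4 -0.53 (adjusted p = 0.263), and Gimap7 probe set 1425084_at gave -1.59 (adjusted p = 0.0527). Without MW naive replicate 2 Gimap7 gave -1.01 (adjusted p = 0.0645), and without WT naive replicate 2 it gave -0.83 (adjusted p = 0.0524). On 1425084_at it was called without each of the 11 arrays in turn, at -1.73 to -1.52. The mean of 6 MHC class II genes was -2.14 to -1.18 in MW naive, whose marrow was MHCII-/-, against -0.46 to 0.46 in WT naive, and 3 of these 6 fell, as did 2 of 10 monocyte and macrophage markers, 1 of 6 NK cell markers and 2 of 10 T cell markers (Cd2 and Cd5). The part of these differences in the GIMAP values was not tested.

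Gimap1, Gimap3 and Gimap5 include the members best known for survival. In mice Gimap1 is needed for the survival of mature T and B cells, and loss of Gimap5 leaves mice and rats short of T cells. Gimap1 was -0.01, -0.13 and 0.14 in WT naive, -0.13, -0.15 and -0.27 in MW naive, -0.17 and 0.21 in WT IMP, and -0.87, -0.49 and -0.43 in WM IMP. WM IMP lay below all other arrays, with -0.62 ± 0.17 against WT IMP (limma adjusted p = 0.102) and -0.41 ± 0.15 against MW naive (adjusted p = 0.111), neither called. In WT IMP against WT naive the difference was 0.023 ± 0.17, with a 95% interval from -0.36 to 0.40.

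Gimap5 had the largest SE of the 8 members in each comparison. Its values were -0.19, 0.15 and 0.03 in WT naive and 0.14, 0.17 and 0.18 in MW naive. They were -0.99 and 0.03 in WT IMP and 1.10, -0.53 and 0.32 in WM IMP, so 1 WT IMP array lay below all naive arrays and the other among them, and the WM IMP arrays lay on both sides of the naive range. No comparison of Gimap5 was called, and its intervals were wide: -1.34 to 0.38 for WT IMP minus WT naive and -0.64 to 0.91 for WM IMP minus MW naive. These data therefore bound its change only loosely. The low WT IMP array, replicate 1, had a Gapdh 5′ minus 3′ difference of -4.23 against -0.27 in replicate 2. Without that array the difference of Gimap5 from WT naive was 0.033. MW naive replicates 1 and 2, with Gapdh differences of -4.22 and -3.50, had Gimap5 at 0.14 and 0.17. WM IMP replicate 2, with -2.71, had Gimap5 at -0.53. The part of RNA quality in the Gimap5 values was not tested.

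Gimap3, whose product is a close relative of GIMAP5 and lies in membranes of the endoplasmic reticulum or mitochondria, was -0.09, 0.64 and -0.55 in WT naive, a range wider than any of its differences between groups. It was -1.05, -1.11 and -0.57 in MW naive, -0.57 and -0.50 in WT IMP, and -0.25, -0.87 and -0.67 in WM IMP. The highest MW naive array lay just below the lowest WT naive array, and the difference of -0.91 ± 0.27 was not called (limma adjusted p = 0.117). It was called with array weights (-0.86, adjusted p = 0.0337) and with the level of the hybridization controls as a covariate (-1.62, adjusted p = 0.0210). These controls were at -0.46 to 0.56 in WT naive and 1.01 to 1.44 in MW naive. The covariate, added after seeing the data, thus cannot be told apart well from the difference between these groups. With that covariate WT IMP minus WT naive was called as well (-0.82, adjusted p = 0.0405), against -0.54 (adjusted p = 0.455) without it.

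Gimap8, which has several GTP-binding domains in 1 protein, and Gimap9 moved least. Gimap8 ranged from -0.38 in MW naive to 0.18 in WM IMP over all 11 arrays, and Gimap9 from -0.47 in WM IMP to 0.24 in WT naive. In WT IMP against WT naive their differences were 0.057 ± 0.14 and -0.015 ± 0.18, with 95% intervals from -0.26 to 0.37 and from -0.41 to 0.38. In the chimeras they were 0.26 ± 0.13 (limma adjusted p = 0.238) and -0.22 ± 0.16 (adjusted p = 0.437).

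The calcium and GSK3 genes linked to GIMAP5, which in mice holds back the kinase GSK3β, were mostly not called. Of 12 measured, 1 rose from WT naive to WT IMP, Nfatc1, a calcium-regulated transcription factor (1.001 ± 0.15, limma adjusted p = 0.00175). In the chimeras 1 rose, Nfatc1 again (0.70 ± 0.14, adjusted p = 0.00578), and 2 fell, Myc (-1.32 ± 0.23, adjusted p = 0.00268) and the calcium channel gene Itpr3 (-0.54 ± 0.14, adjusted p = 0.0247). The list medians were -0.15 in both comparisons. Of all genes, 7.66% were called in WT IMP against WT naive and 13.1% in WM IMP against MW naive.

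Of 14 genes of naive T cell quiescence and homing, 7 fell and 0 rose from WT naive to WT IMP (median -1.31), and 8 fell and 0 rose from MW naive to WM IMP (median -1.11). Lef1, a transcription factor of naive T cells, fell by 3.12 ± 0.35 in unmanipulated mice (limma adjusted p = 1.75e-04) and by 3.09 ± 0.31 in the chimeras (adjusted p = 4.88e-05). Bach2, a repressor that maintains the naive state, fell by 2.29 ± 0.20 in unmanipulated mice (adjusted p = 3.59e-05) and fell by 2.85 ± 0.18 in the chimeras (adjusted p = 1.41e-06). Ccr7, the receptor for entry into lymph nodes, fell by 2.10 ± 0.28 (adjusted p = 7.29e-04) and fell by 3.32 ± 0.25 (adjusted p = 5.86e-06). Klf2, a factor that drives S1pr1, was -0.73 and -0.71 in WT IMP against -0.09 to 0.13 in WT naive, a difference of -0.72 ± 0.23 that was not called (adjusted p = 0.1004). In the chimeras Klf2 fell by 1.56 ± 0.21 (adjusted p = 4.16e-04).

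Survival genes outside the GIMAP family changed for a few members. Il7r, the receptor for the survival cytokine IL-7, was 1.05, 0.82 and 0.97 in MW naive and -0.05, -0.71 and -0.05 in WM IMP, a fall by 1.22 ± 0.21 (limma adjusted p = 0.00229). In unmanipulated mice its difference was -0.55 ± 0.23 (adjusted p = 0.221), and it was higher in MW naive than in WT naive by 0.95 ± 0.21 (adjusted p = 0.0377). Bcl2 was the 1 of 4 measured anti-death genes of its family that was called. It was -0.33, 0.20 and 0.14 in WT naive, 1.34, 1.75 and 0.97 in MW naive, -1.83 and -1.65 in WT IMP, and -0.37, -1.12 and -0.67 in WM IMP. Bcl2 fell by 1.74 ± 0.26 in unmanipulated mice (adjusted p = 0.00164) and by 2.07 ± 0.24 in the chimeras (adjusted p = 1.32e-04), and was higher by 1.35 ± 0.24 in MW naive than in WT naive (adjusted p = 0.0162). Bcl2 and Il7r were thus high in MW naive, the group in which Gimap7 and Gimap4 were low.

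Of 10 pro-death genes of the BCL2 family, 2 rose from WT naive to WT IMP, Pmaip1 (3.65 ± 0.26, limma adjusted p = 9.31e-06) and Bik (0.96 ± 0.23, adjusted p = 0.0240). In the chimeras Pmaip1 rose by 3.59 ± 0.24 and Bik by 0.94 ± 0.20, and Bbc3 fell by 1.76 ± 0.24. Pmaip1 and Bbc3 encode NOXA and PUMA, which promote death by binding anti-death relatives. Of 13 other GTPases and GTPase regulators of lymphocytes, 12 were measured by a probe set that named that gene alone (not Gbp4), and of these 2 rose and 1 fell in unmanipulated mice, and 1 rose and 3 fell in the chimeras. Gbp3, an interferon-induced GTPase, rose in both (1.98 ± 0.26 and 1.56 ± 0.24), and Rhoh, an atypical GTPase of the T cell receptor pathway, fell by 0.86 ± 0.17 in unmanipulated mice (adjusted p = 0.00793). Beside the counts of these lists, 7.66% of all genes were called in unmanipulated mice and 13.1% in the chimeras.

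**Figure D4:**
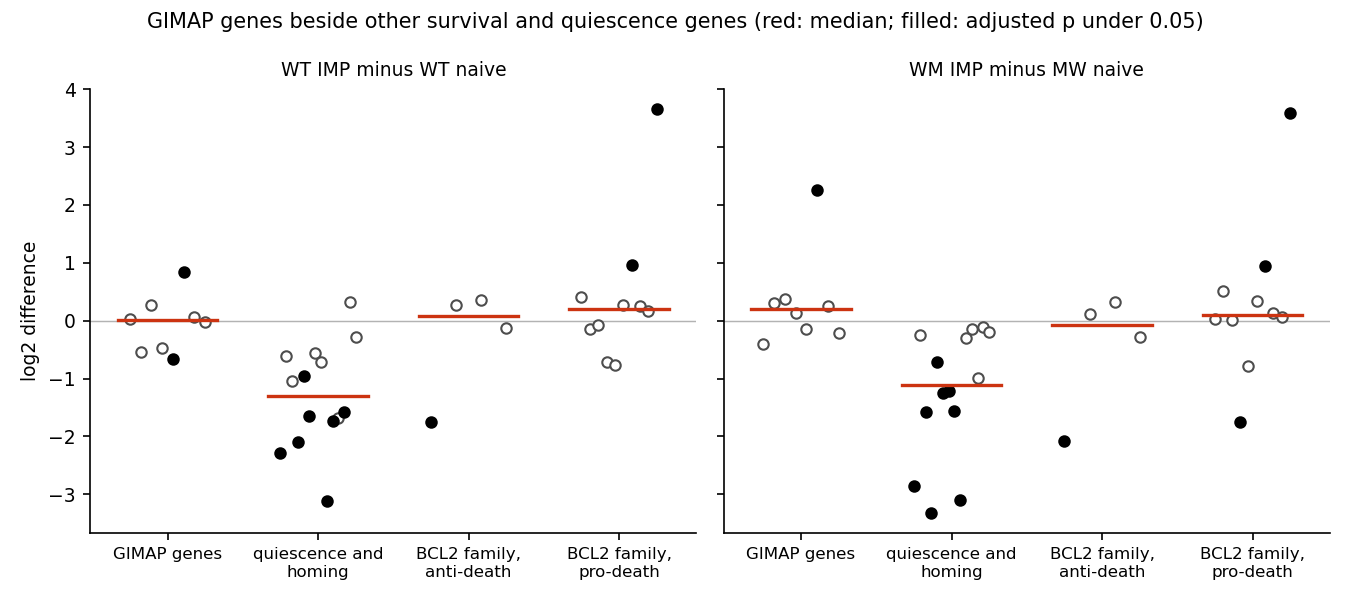
Points are log2 differences of single genes, red lines are medians and filled points have an adjusted p under 0.05, for the GIMAP genes, the quiescence and homing genes and the BCL2 family. The median of the 14 quiescence and homing genes is -1.31 in WT IMP minus WT naive and -1.11 in WM IMP minus MW naive, and that of the 8 GIMAP genes is 0.0042 and 0.20.

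On chromosome 6 the GIMAP genes follow in the order Gimap8, Gimap9, Gimap4, Gimap6, Gimap7, Gimap1, Gimap5, Gimap3. The members called in any comparison, Gimap4, Gimap6 and Gimap7, are next to each other in this order, with Gimap6 called lower and Gimap7 called higher in WT IMP. They are also the members with 2 probe sets, and each other member has 1. Whether the number of probe sets affected the calls was not tested. Just beyond Gimap3 lie Tmem176b and Tmem176a, which encode membrane proteins found in dendritic cells and some T helper cells. Tmem176b was -0.31 to 0.19 in WT naive, 0.58 to 1.26 in MW naive, 3.91 and 3.79 in WT IMP, and 4.10 to 4.84 in WM IMP. It rose by 3.85 ± 0.25 in unmanipulated mice (limma adjusted p = 4.38e-06) and by 3.55 ± 0.22 in the chimeras (adjusted p = 1.21e-06). Tmem176a rose by 3.77 ± 0.30 and 4.04 ± 0.27. The dendritic cell markers rose in the same arrays, and their part in this rise was not tested. Of the other 6 measured neighbours (Lrrc61, Rarres2, Repin1 and Zfp775 before the members, Aoc1 and Doxl1 after), 1 was called in these comparisons, Zfp775, which fell by 0.64 ± 0.18 in the chimeras (adjusted p = 0.0361).

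**Figure D5:**
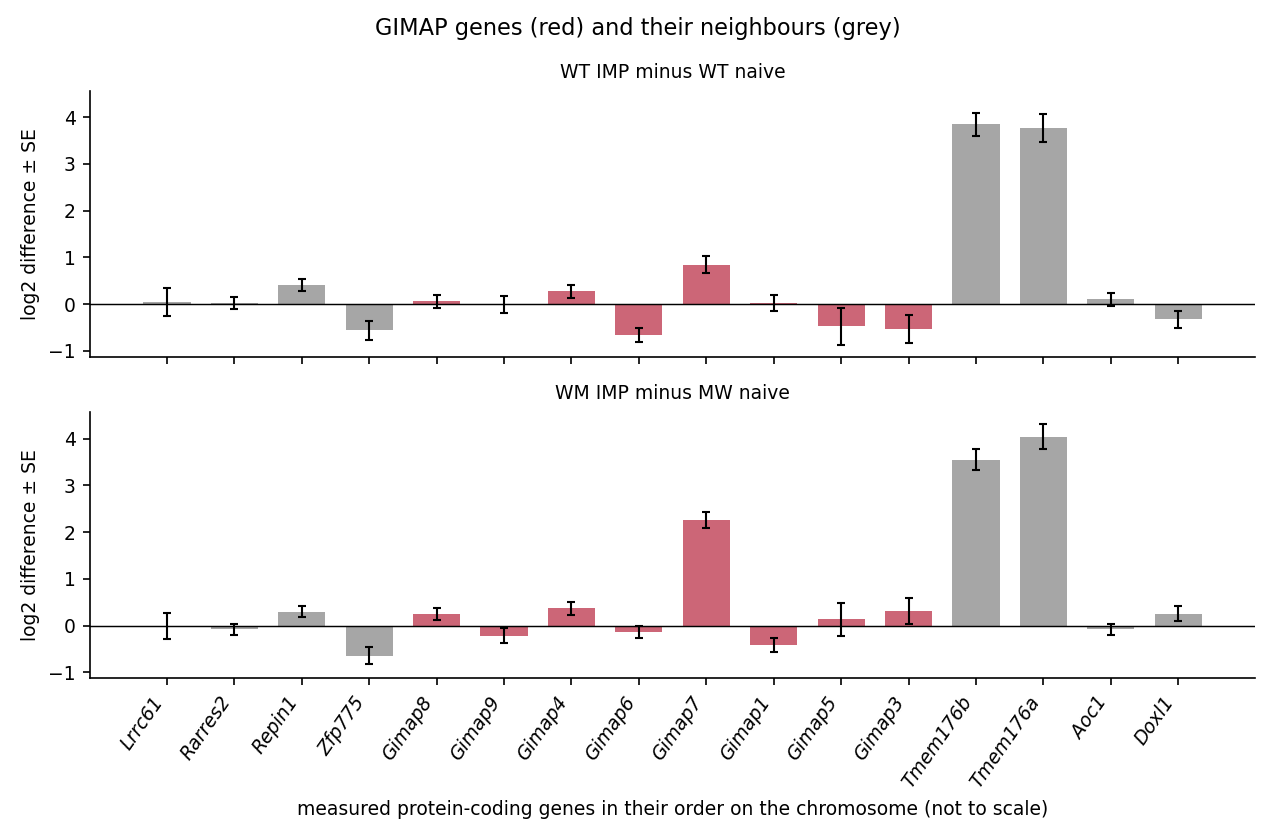
Bars are log2 differences with SE of the GIMAP genes (red) and of the measured protein-coding genes on each side (grey), in their order on the chromosome and not to scale. The bars of Tmem176b and Tmem176a stand between 3.55 and 4.04 in both comparisons, and that of Gimap7 at 0.84 and 2.26.

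The members did not follow 1 shared profile over the 11 arrays. The Pearson correlation of a member with the mean of all 8 ranged from -0.0062 (Gimap1) to 0.79 (Gimap4), which includes the member itself in the mean. That mean, with each member centred over the arrays, was 0.15 in WT naive (0.11 to 0.22), -0.26 in MW naive (-0.32 to -0.21), 0.086 in WT IMP (-0.029 to 0.20) and 0.057 in WM IMP (-0.13 to 0.26). MW naive was the lowest group and did not overlap the others. The genes most like this mean over the 11 arrays were Cyb5r3 (r = 0.946), Rnf130 (0.936), Aldh3a2 (0.925), Sat1 (0.923), M6pr (0.916), Cipc (0.914), Fzr1 (0.911), Ywhae (0.906), Copb2 (0.888) and Arf1 (0.888). All 10 had MW naive as their lowest group mean, from -1.79 (Ywhae) to -0.47 (Rnf130). They were chosen for likeness to a mean that was lowest in MW naive, so this is no separate observation. The arrays of a group share their phenotype and host.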

How the data were processed

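The authors deposited log2 values from RMA (robust multi-array averaging), per the submitters' processing notes, with the average of the 3 WT naive arrays subtracted from each probe set. The log base was taken from the convention of RMA, and the annotation that assigned probe sets to genes is not given in the sources used here. Of 45101 probe sets, 64 were controls. A second deposited table of 27800 genes, quantile normalized per its name and on the same log2 scale by its values, gave the gene IDs of probe sets and served as an alternative. Symbols of 17879 genes were taken from RefSeq through those IDs. Probe sets that named 1 gene (37510) were averaged per gene (20400). Linear models with 4 group means over all 11 arrays were fitted with limma 3.58.1 (lmFit and eBayes) in R 4.3.3, with two-sided p-values and Benjamini-Hochberg adjustment over the 20400 genes of a comparison, or over all 37510 probe sets where probe sets were tested singly. The script was tested on simulated data. Tables and figures used Python 3.11.15, pandas 2.3.3, numpy 2.4.6, scipy 1.17.1 and matplotlib 3.10.9.

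Arrays were grouped by their labels. The members, gene lists and tests were chosen with earlier results of these data known. Named genes are all members, up to 3 called genes of each list with the greatest difference in each direction, Il7r, Bcl2 and Klf2, the 5 protein-coding genes on each side of the members, and the 10 genes most correlated with the mean of the members. Not all of these are printed, and 1 further gene of the quiescence and homing list is not reported here and was left out of its counts. Replicate numbers of the labels were checked for pairing, as the correlation of same-numbered arrays' deviations from their group means. Over 10 such pairs r was -0.28 to 0.19, over 0.1 in 1, so the numbers were not taken to pair arrays.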

Additional observations from a re-analysis of the deposited data

How the results depend on the processing

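The share of all genes called was given above for the main setting only, so a count of members in an alternative cannot be set against it. The count of members called in WM IMP against MW naive was 1 in the main setting and in every alternative tried. In WT IMP against WT naive the count of 2 became 1 in the authors' other deposited table, and 0 with a replicate block, with the 7 arrays without high poly-A controls, with the Gapdh 5′ minus 3′ covariate and at an adjusted p under 0.01, and was 0 to 2 with each array left out in turn. It became 3, with Gimap3 added, with the hybridization control level as a covariate (an alternative added after seeing the data). In MW naive against WT naive the count of 2 became 3 with array weights (Gimap3 added) and with each probe set tested by itself (Gimap6 added), 1 in the other table and 1 with the hybridization covariate, where Gimap3 was called and Gimap4 and Gimap7 were not, and 0 with those same 7 arrays, with the Gapdh covariate and at an adjusted p under 0.01, and was 0 to 2 with an array left out. In WM IMP against WT IMP the count of 0 became 1 with array weights and 1 with the Gapdh covariate, both for Gimap4 (-0.69, adjusted p = 0.0426, and -0.72, adjusted p = 0.0339), and 2 with each probe set tested by itself. For the difference of differences it became 1 with array weights (Gimap7 at 1.34, adjusted p = 0.0405) and was 0 to 1 with an array left out (Gimap7 at 1.54, adjusted p = 0.0380, without WM IMP replicate 2). The replicate block moved no other count of called members, and 0 of 6 arrays correlated best with their own number in either comparison of 3 pairs. The cause of these changes was not tested. A stricter threshold can only keep or lower a count by construction. With an array left out, counts went down in some comparisons and up in the difference of differences.

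Of 1092 alternative values of the members and their called probe sets, 43 had the opposite sign to the main value, and 1 of these was called (Gimap6 at -0.95 on its lower probe set in WM IMP against WT IMP). With an array left out, the values were -0.17 to 0.21 for Gimap1, -0.99 to 0.033 for Gimap5 and -0.15 to 0.10 for Gimap9 in WT IMP minus WT naive, -0.27 to 0.55 for Gimap5 in WM IMP minus MW naive, -0.19 to 0.065 for Gimap9 in MW naive minus WT naive, -0.23 to 0.075 for Gimap3 and -0.053 to 0.054 for Gimap8 in WM IMP minus WT IMP, and -0.10 to 0.29 for Gimap4 in the difference of differences. In WT IMP minus WT naive the sign also turned for Gimap1 with array weights (-0.0015), for Gimap5 (0.10) and Gimap9 (0.077) with the Gapdh covariate, and for Gimap8 in the other table (-0.00061). In WM IMP minus MW naive it turned for Gimap5 with array weights (-0.092), the Gapdh covariate (-0.31) and the hybridization covariate (-0.42), for Gimap3 with the latter (-0.37), and for Gimap6 on its higher probe set (0.14). In MW naive minus WT naive it turned for Gimap1 (0.15) and Gimap5 (-0.42) with the hybridization covariate, for Gimap6 on its higher probe set (0.051), and for Gimap9 in the other table (0.042) and with the Gapdh covariate (0.071). In WM IMP minus WT IMP it turned in the other table for Gimap3 (0.10), Gimap6 (-0.49) and Gimap7 (-0.40), on the lower probe set for Gimap7 (-0.68), with the 7 arrays for Gimap3 (0.043), and with the hybridization covariate for Gimap5 (-0.14), Gimap6 (-0.23) and Gimap8 (-0.10). Gimap8 also turned there with array weights (-0.030), median centring (-0.027) and the Gapdh covariate (-0.015). In the difference of differences it turned for Gimap4 with the 7 arrays (-0.028), the Gapdh covariate (-0.20) and the lower probe set (-0.049), for Gimap5 with the Gapdh covariate (-0.42) and for Gimap6 on its lower probe set (-0.14). The median over all genes differed from 0 by at most 0.045 in an array.

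Poly-A control probe sets averaged at least 2.29 in 4 arrays, 1 of each group, and at most -0.91 in the other 7, and hybridization controls were highest in WM IMP replicate 1 (3.17). WT IMP has 2 arrays, so its spread rests on that of the other groups. The values used here hold no brightness, so probe sets near background could not be set apart.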

Other observations

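The single-gene probe sets of Gimap4, Gimap6 and Gimap7 differed from each other by more than most pairs did in MW naive against WT naive. The gaps between the 2 probe sets of a gene were 0.86 for Gimap4, 0.86 for Gimap6 and 1.35 for Gimap7, against a median of 0.25 over 5144 genes with 2 probe sets, and 90.8%, 90.7% and 97.7% of those genes had a smaller gap. Which transcripts each probe set reads was not examined here. For the 5 members with 1 probe set, the authors' deposited table followed it closely, with a root mean square difference of 0.069 (Gimap8) to 0.111 (Gimap5) over the 11 arrays.

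In WM IMP against WT IMP, 2 of the 14 quiescence and homing genes fell, Btg2, which restrains proliferation (-2.06 ± 0.33, limma adjusted p = 0.0201) and Ccr7 (-1.40 ± 0.28, adjusted p = 0.0443), and 0 rose. In MW naive against WT naive S1pr1, the receptor for exit from lymphoid organs, fell by 1.87 ± 0.40 (adjusted p = 0.0368) and Btg2 by 1.52 ± 0.29 (adjusted p = 0.0245), while Il7r rose.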
